A study of Mus musculus with 6 samples.

Results

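The KDM genes described here encode histone lysine demethylases of the JmjC type. They are 10 genes of the 27179 in the table, Kdm2a, Kdm3a, Kdm3b, Kdm4a, Kdm4b, Kdm4c, Kdm5a, Kdm5b, Kdm6b and Kdm7a, found by their symbols. They were selected on a measured value, the difference of Kdm3a between the treatments in the authors' own comparison, in the same libraries, and their levels are therefore given as a description. RNA was sequenced from B16F10 cells, an established mouse melanoma line of wild-type genotype by its label, after 6 h with 0.01% ozonated olive oil (OZO, 3 libraries) or 0.01% olive oil that had not been ozonated (OLO, 3 libraries). Both groups were grown in DMEM with fetal bovine serum, and no library without oil was analysed here. The fold changes and p-values of OZO against OLO in the table are the authors' results and were not used. The value analysed for each gene is the authors' mean level over the 6 libraries of both treatments. This mean does not show whether a gene differed between OZO and OLO, and it carries no spread between libraries, so no difference was tested.

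JmjC demethylases remove methyl groups from lysines of histone tails in a reaction that uses molecular oxygen, 2-oxoglutarate and ferrous iron. Their activity can therefore fall when oxygen or iron is scarce, and several of their genes are known targets of the hypoxia-inducible factors. Methylated lysines differ in what they mark. H3K9 and H3K27 methylation is typical of silent chromatin, H3K4 methylation of promoters and enhancers, and H3K36 methylation of transcribed gene bodies.

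Levels are given in CPM, the counts of a gene scaled to a common library size (counts per 1000000 reads mapped to genes), as a geometric mean over the libraries. From the 6025 genes without a read, the scaled library size was 19641945 reads as a geometric mean, so 1 CPM stood for 19.6 reads. Depth of the single libraries is unknown. Levels of different genes are compared per kilobase of exon (CPM per kb). All 7 pigment cell markers listed had at least 108.5 CPM, among them Dct with 7052 CPM and Pmel with 3066 CPM, and none of the 18 fibroblast, keratinocyte, blood cell and endothelial markers was above 3.28 CPM. The level of a gene in such bulk RNA is a share of all reads, so fewer expressing cells and less RNA per cell cannot be told apart.

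Each of the 10 KDM genes had reads. Kdm6b, the lowest by reads, had a geometric mean of 995 reads per library (50.7 CPM), and Kdm3a, the highest, had 9202 reads (468 CPM). Counting (Poisson) error alone was between 0.426% and 1.29% of the mean over the 6 libraries. The spread between cultures adds to this error and is unknown.

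Per length, Kdm3a stood first in the mean over both treatments. That mean, the place and the ratios to other genes contain the difference on which Kdm3a was selected. Its place in OZO or OLO alone was not worked out, because the authors' fold changes were not used. It reached 57.0 CPM per kb, which was higher than 96.5% of the 19227 genes with reads and an annotated length. Kdm3a encodes a demethylase of mono- and dimethylated H3K9. Its level was 2.40 times that of the next member, Kdm5a, with 23.7 CPM per kb. Kdm5a removes methyl groups from H3K4, as does Kdm5b, which stood last at 3.44 CPM per kb. The highest and the lowest of the 10 genes thus differed 16.6-fold per kilobase. By the longest transcript, Kdm3a had 96.5 CPM per kb and Kdm5b had 6.53 CPM per kb, a 14.8-fold difference.

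**Figure D1:**
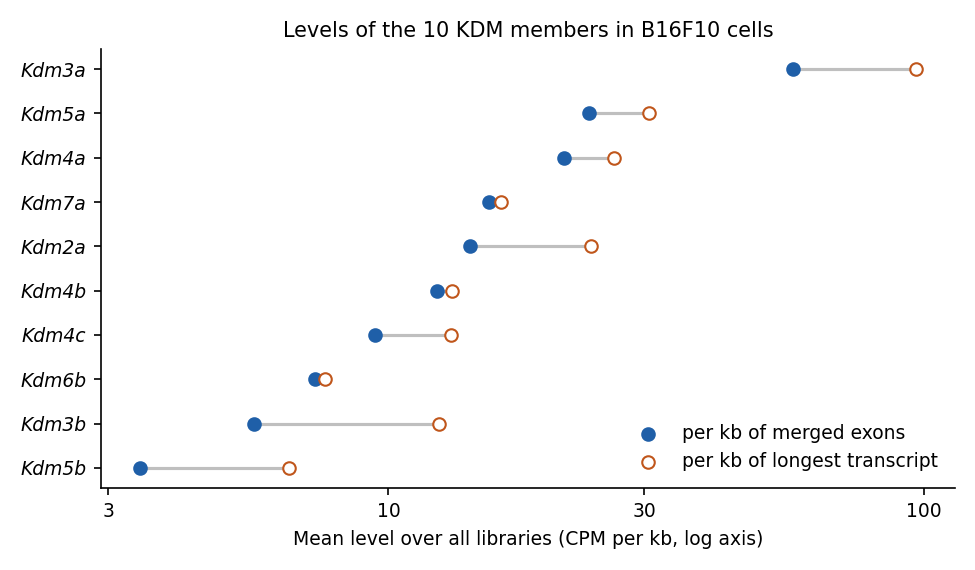
Mean level of each KDM gene over the 6 libraries of both treatments, in CPM per kb on a log axis. Filled points divide by merged exon length and open points by the longest transcript, a line joins the points of a gene, and no error is drawn because the spread between libraries is unknown. Kdm3a is first and Kdm5b last on both scales, at 57.0 and 3.44 CPM per kb of merged exons.

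Kdm4a, which acts on trimethylated H3K9 and H3K36, followed with 21.3 CPM per kb. Kdm7a, a demethylase of dimethylated H3K9 and H3K27, had 15.4 CPM per kb and Kdm2a, which acts on H3K36, had 14.2 CPM per kb. These 3 genes and Kdm5a each lay above at least 81.7% of the genes. Kdm4b and Kdm4c, relatives of Kdm4a with the same substrates, had 12.3 and 9.44 CPM per kb. The lower levels were those of Kdm6b, an H3K27 demethylase, with 7.28 CPM per kb, and of Kdm3b, a close relative of Kdm3a, with 5.61 CPM per kb.

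Neighbours in this order often lay close together. Kdm7a was 1.09 times as high as Kdm2a and Kdm5a 1.12 times as high as Kdm4a, and without the spread between libraries it cannot be said whether such neighbours differ. The order of Kdm7a and Kdm2a turned when the length of the longest transcript was used, with 16.2 CPM per kb for Kdm7a and 23.9 CPM per kb for Kdm2a. Kdm3b rose above Kdm6b in the same way, to 12.4 CPM per kb against 7.61 CPM per kb. Merged exons of Kdm3b span 14095 bases in contrast to 6363 bases of its longest transcript, so its value depended most on the length chosen.

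**Figure D2:**
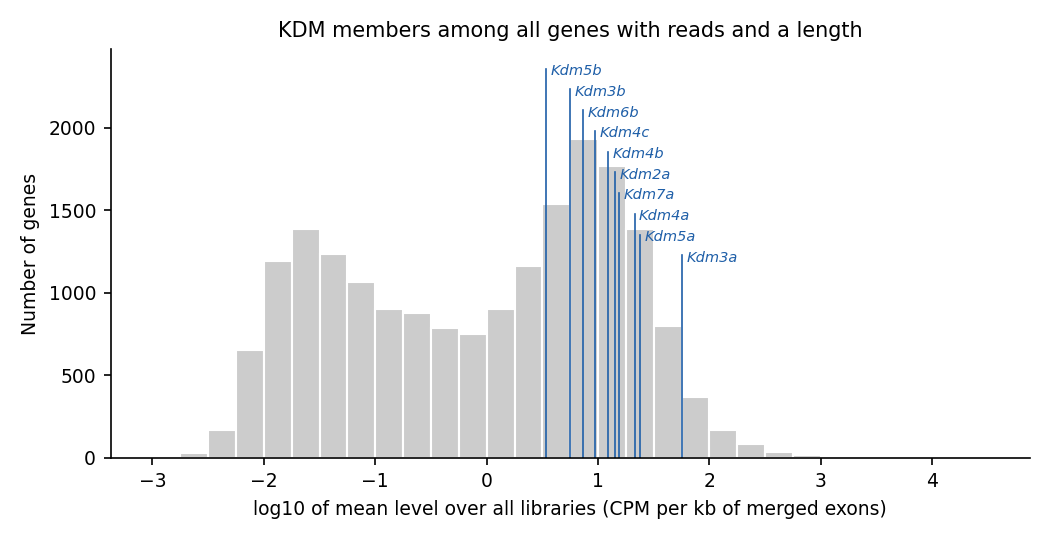
Number of genes (vertical axis) by log10 of the mean level in CPM per kb of merged exons (horizontal axis), for the 19227 genes with reads and a length. Each blue line marks a KDM gene at its own level, its height has no meaning, and all 10 lie in the right-hand hump, between Kdm5b at 3.44 and Kdm3a at 57.0 CPM per kb.

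All 10 genes lay above the median gene, which had 1.47 CPM per kb, and 6 of the 10 were in the upper 25% of genes, which began at 9.55 CPM per kb. Kdm4c, with 9.44 CPM per kb, was just below that limit. By reads alone, without regard to length, all 10 were in the upper 25%, which began at 39.1 CPM. Ranked per kilobase among genes of at least 1 CPM only, 3 of the 10 were in the upper 25% and 8 above the median. Long genes collect more reads, and the longest transcripts of the members ran from 4196 bases for Kdm4c to 10944 bases for Kdm5a. The position of the members among all genes was not tested.

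Levels differed within most subfamilies. Kdm3a was 10.2 times as high as Kdm3b per kilobase and 5.07 times as high as Jmjd1c, also of that subfamily, which had 11.2 CPM per kb. By the longest transcript Jmjd1c had 23.3 CPM per kb, and these ratios were 7.77 and 4.15. In the H3K4 subfamily Kdm5c, on the X chromosome, had 10.3 CPM per kb, and Kdm5a was 2.31 times as high. Kdm5d, the copy on the Y chromosome, had a geometric mean of 1.91 reads with the added 0.5 reads included, near the floor. Uty, the Y-linked relative of Kdm6a, had 1.61 reads on the same scale. Kdm6a, the other broadly known H3K27 demethylase, had 10.7 CPM per kb and so was 1.48 times as high as Kdm6b. In the Kdm4 subfamily Kdm4d had 0.154 CPM per kb, with Kdm4a 138 times as high. Kdm2a was 3.90 times as high as Kdm2b, which had 3.64 CPM per kb, or 3.13 times by the longest transcript, with 7.64 CPM per kb for Kdm2b. Kdm7a and its relative Phf2 lay close together, at 15.4 and 15.0 CPM per kb, and Phf8, the other gene of that subfamily, had 3.59 CPM per kb.

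Ranked with the 21 other JmjC genes and both FAD-dependent demethylases, 33 genes in all, Kdm3a was at place 1 and Kdm5a at place 2, ahead of Jmjd6, a JmjC hydroxylase, with 22.0 CPM per kb. By the longest transcript, Kdm1a took place 2 with 34.8 CPM per kb and Kdm5a place 3 with 30.7 CPM per kb. The KDM members took 6 of the first 10 places, or 5 by the longest transcript, and on merged exons Kdm5b stood at place 23. The median of the 21 other JmjC genes was 3.59 CPM per kb against 13.3 CPM per kb for the 10 members. By the longest transcript these medians were 5.25 and 14.7 CPM per kb. Of the reads in the 31 JmjC genes, counted as the sum of their CPM, 64.8% fell on the members and 19.1% on Kdm3a alone. The other JmjC genes include close relatives of members, such as Kdm5c, Kdm6a and Jmjd1c, and Y-linked genes near the floor. The places, medians and shares therefore depend on how the list of members was drawn, with earlier results known. Kdm1a, the FAD-dependent H3K4 demethylase LSD1, which uses oxygen but neither iron nor 2-oxoglutarate, had 20.4 CPM per kb, and Kdm3a was 2.80 times as high.

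**Figure D3:**
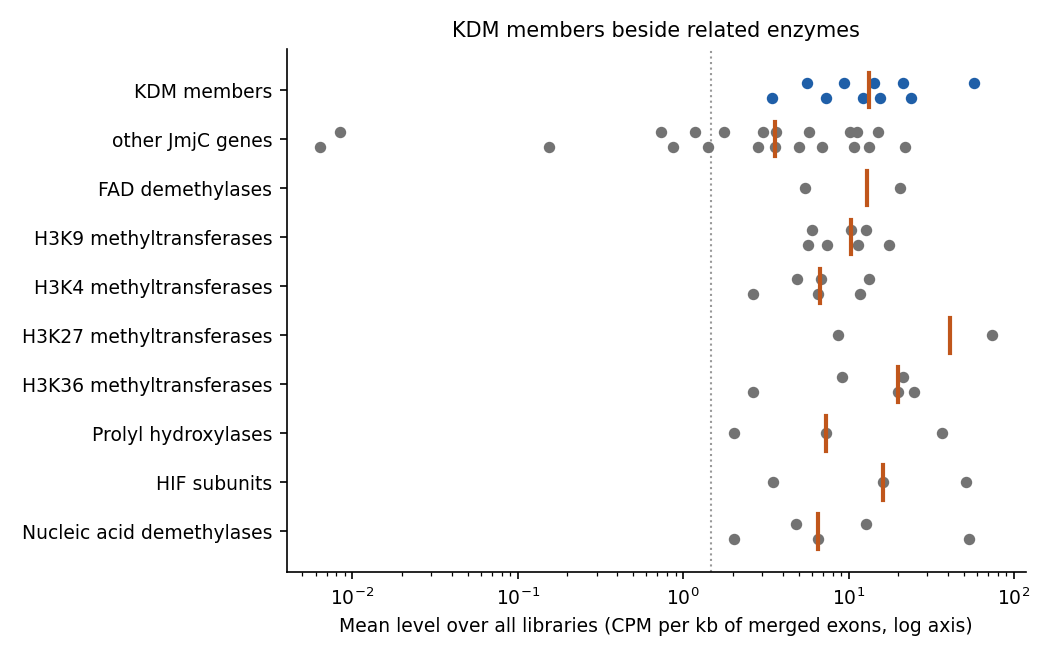
Mean level over all libraries of single genes (points) in CPM per kb of merged exons on a log axis, by gene group, with KDM members in blue, the median of each group as an orange bar and the median of all genes with reads as a dotted line at 1.47. The members lie from 3.44 to 57.0 CPM per kb, whereas 3 of the other JmjC genes (Kdm4d, Uty and Kdm5d) are at or below 0.154.

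The methyltransferases that act on the same lysines were present as well. For H3K9, the 7 enzymes listed ran from 5.69 to 17.6 CPM per kb, with Ehmt2 (G9a) at the top. Kdm3a was 3.24 times as high as Ehmt2, a ratio that contains the difference on which Kdm3a was selected. Kdm4a, with 21.3 CPM per kb, was also above Ehmt2. Kdm7a, Kdm4b and Kdm4c lay within the range, and Kdm3b, with 5.61 CPM per kb, lay below all 7. By the longest transcript Kdm3b had 12.4 CPM per kb, above the 5.80 CPM per kb of Suv39h2. For H3K4, the 6 enzymes ran from 2.64 to 13.4 CPM per kb, and Kdm5a was 1.78 times as high as the highest of them, Setd1a. Kdm1a, with 20.4 CPM per kb, was also above Setd1a, whereas Kdm5c with 10.3 and Kdm5b with 3.44 CPM per kb were below it. For H3K27, Ezh2, the catalytic subunit of Polycomb complex PRC2, had 73.7 CPM per kb and lay above the demethylases of this lysine named here. Ezh1, the other enzyme listed, had 8.63 CPM per kb and lay below Kdm7a and Kdm6a, but by the longest transcript it had 15.3 CPM per kb, close to the 15.2 CPM per kb of Kdm6a. The level of Ezh2 was 4.78 times the level of Kdm7a, the highest H3K27 demethylase here, 6.86 times that of Kdm6a and 10.1 times that of Kdm6b. By the longest transcript these ratios were 10.9, 11.6 and 23.2. For H3K36, the 5 enzymes ran from 2.64 to 24.8 CPM per kb. Nsd2, the highest, was 1.17 times as high as Kdm4a and 1.75 times as high as Kdm2a. By the longest transcript these ratios were 2.03 and 2.24, with 53.5 CPM per kb for Nsd2. Setd2 lay close to Kdm4a, each with 21.3 CPM per kb, or 27.45 and 26.35 CPM per kb by the longest transcript. These ratios compare RNA levels of genes and not enzyme activities. Genes were paired by lysine and not by the number of methyl groups.

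Oxygen also enters the reactions of the HIF prolyl hydroxylases. Egln1, the main one, had 36.9 CPM per kb, Egln2 had 7.26 CPM per kb and Egln3 had 2.02 CPM per kb. Hif1a, the oxygen-regulated subunit of HIF-1, had 51.0 CPM per kb, and Kdm3a was 1.12 times as high, or 1.52 times by the longest transcript. Epas1, which encodes HIF-2α, had 3.48 CPM per kb, and Arnt, their shared partner, 16.1 CPM per kb, or 29.7 CPM per kb by the longest transcript. Among the 5 demethylases of DNA and RNA of the same reaction type, Alkbh5 had 53.4 CPM per kb and Tet1 2.04 CPM per kb.

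Positions are those of GENCODE M21 on GRCm38 (mm10). Kdm3a lies on chromosome 6 from 71588972 to 71632990 on the minus strand, with 26 exons in its longest transcript and no other annotated gene in its span. Chromosome 6 also carries Kdm5a (120364124 to 120444574, plus strand) and Kdm7a (39136623 to 39206789, minus strand). Kdm4a and Kdm4c share chromosome 4, at 118136957 to 118180043 and at 74242497 to 74405860. The longest coding sequences ran from 940 codons for Kdm7a to 1762 codons for Kdm3b. Kdm6b is the most compact, with 15.2 kb on chromosome 11, and Kdm4c spans 163.4 kb.

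Some exons are shared with genes on the other strand. The library kit keeps strand, but whether counting used it is not stated, so reads there cannot be told apart. Exons of Kdm3b share 3468 bases, 24.6% of its exon length, with the noncoding Gm26538. The shared parts were 4.11% for Kdm6b (with Kdm6bos), 2.85% for Kdm7a and 1.77% for Kdm5a, whose neighbour Ccdc77 had 56.5 CPM. Kdm2a, Kdm3a, Kdm4a, Kdm4b, Kdm4c and Kdm5b shared no exon base with another gene.

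Promoter windows from RefSeq (GRCm38.p6, 250 bases before to 50 bases after an annotated start) were matched for 5 of the 10 genes, Kdm3a, Kdm4a, Kdm4c, Kdm5b and Kdm7a, with 8 windows because Kdm3a has 3 starts and Kdm4c has 2. The stretch from 250 to 74 bases before the most upstream start of Kdm3a is shown because this gene had the highest level. It lies at chr6:71632991-71633167 on the minus strand, outside annotated exons, and is written 5′ to 3′ with CG pairs in capitals. It holds 14 of them in 177 bases, and the whole window of this start holds 24.

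Kdm3a: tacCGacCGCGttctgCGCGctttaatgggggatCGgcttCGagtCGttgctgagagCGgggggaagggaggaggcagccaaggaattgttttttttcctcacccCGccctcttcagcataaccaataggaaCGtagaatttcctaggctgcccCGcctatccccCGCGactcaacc

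The windows of the 8 starts held a median of 20.5 CG pairs, in comparison with 7 for all 32851 promoter windows and 21 for those of genes with at least 1 CPM. Kdm7a had 65 CG pairs, more than 99.99% of all windows. An internal start of Kdm3a and the upstream start of Kdm4c had 0. None held the TATA box letters TATAAA on either strand, which 13.6% of all windows and 6.91% of those of genes with at least 1 CPM did.

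ACGTG, a form of the core of the hypoxia response element, was searched on both strands. The core can also start with G, and that form was not searched. It was found in 3 of the 8 windows (37.5%), one each of Kdm4c, Kdm5b and Kdm7a, against 19.6% of all windows and 25.9% of those of genes with at least 1 CPM. No window of Kdm3a or Kdm4a held these letters. This says only what the letters in the windows are. The matches are shown, 30 bases each, because they are the places in these 8 windows where the letters stand. ACGTG is in capitals, and so is the preceding C at Kdm4c, where CACGTG reads the same on both strands, counts on each, and is also the letter sequence of an E-box.

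Kdm4c, chr4:74251782-74251811, plus strand: agtttagagaccCACGTGacccagagagcg
Kdm4c, chr4:74251814-74251843, plus strand: cggcccagcggtCACGTGggggcgcgtgcg
Kdm5b, chr1:134559937-134559966, plus strand: ccaaaatatatgACGTGattgatggattgt
Kdm7a, chr6:39206895-39206924, minus strand: cggagaccgagaACGTGcgcgggacgcacg

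Both Kdm4c matches belong to its downstream start, which lies inside the annotated gene. Per kilobase, the genes with the letters, Kdm7a at 15.4, Kdm4c at 9.44 and Kdm5b at 3.44, were below Kdm3a and Kdm4a, the matched genes without them. By reads without regard to length, Kdm7a with 155 CPM was above Kdm4a with 123 CPM. With 5 genes these orders are a description only, and a link between letters and level was not tested.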

How the data were processed

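RNA of 6 libraries, 3 per treatment, was measured. Per the labels and methods, the authors aligned reads to mm10 with HISAT2 2.1.0, counted genes with featureCounts 2.1.1 and used limma-voom 3.58.1. The annotation and strand setting of counting are not given in the sources used here. The deposited table holds the authors' mean log2 CPM over all libraries, which was used, and 5 columns of their OZO against OLO comparison (fold changes, statistics, p-values), which were not. It has 0 columns of single libraries, so the tests planned for such values were not run.

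The mean log2 value was turned into CPM. Genes without reads share the lowest value, 0.5 reads added by voom, which gave reads per gene and the library size. A check on simulated counts, with library sizes that were not scaled by normalization, tested the arithmetic only. Lengths are merged exons or the longest transcript of GENCODE M21, found for 23882 of 24126 Ensembl identifiers. Genes named are all members and the related enzymes listed. Members and lists were chosen with earlier results of these data known. Python 3.11.15, numpy 2.4.6, pandas 2.3.3 and matplotlib 3.10.9 were used.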

Additional observations from a re-analysis of the deposited data

How the results depend on the processing

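No paired analysis was possible because the value used is 1 mean per gene over all libraries. For the same reason another test, another normalization, a count filter, another pseudocount, a replicate block and leaving out single libraries were not run for the OZO against OLO comparison. The number of KDM members in the upper 25% of genes was 6 of 10, and it was 10 by CPM without length, 3 when ranked only among genes of at least 1 CPM and 5 per kilobase of the longest transcript. All 10 members lay above the median gene by CPM and by the longest transcript, and 8 did among genes of at least 1 CPM, a ranking that holds fewer low genes. A ranking limited to genes with a symbol removed none of the 19227 genes and so bears on nothing. Depth limits no member, since each had at least 995 reads per library as a geometric mean, but the spread between libraries is unknown.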
